A study of Mus musculus with 8 samples.

Results

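Mice labelled as Terc knockout were compared with and without the Ku86(-/-) label, to ask which testis transcripts differ with the Ku86 label when Terc is labelled as deleted. The comparison took 4 of the 8 arrays of the series: 2 labelled Ku86(-/-);G3-Terc(-/-), called the double knockout here, and 2 labelled Ku86(+/+);G3-Terc(-/-), called the Terc knockout. Per the labels both groups carry the Terc deletion, in mice of the third generation without it, and differ in Ku86. Xrcc5, the Ku86 gene, read higher on the arrays labelled Ku86(-/-), as given below, so groups are named by their labels throughout. The other 4 arrays, 2 labelled Ku86(-/-);Terc(+/+) (the Ku86 knockout) and 2 labelled Ku86(+/+);Terc(+/+) (wild type), entered the fit. They served as a second Ku86 contrast that shares no array with the first, but shares wash runs with it, as given below. All probe sets of the Affymetrix MG_U74Av2 array that are not controls were used, 12422 of 12488. Of these, 7282 passed the filter on low signal and were tested, and 5140 were not. Signals are intensities in arbitrary units.

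Ku86, the product of Xrcc5, pairs with Ku70, the product of Xrcc6. The ring they form threads onto broken DNA ends and recruits the DNA-dependent protein kinase (Prkdc) for non-homologous end joining, and it also sits at telomeres. Telomerase copies the RNA Terc into telomere repeats with its protein subunit Tert, and mice without it lose telomere length over generations. The testis, with its dividing germ cells and long meiosis, is among the tissues where late generations without telomerase are known to be affected.

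The material was total RNA from testis per the labels, whereas the scanner records call the samples germ cells, and those records give 15 µg of cRNA per array. Age and strain are not given in the sources used here. Double knockout replicate 1 was a pool of 3 mice. The records name different animals for the other arrays, so p-values measure the spread between these samples, which may in part be technical. Median signal was 60.5 and 70.5 on the double knockout arrays and 63.8 and 73 on the Terc knockout arrays, and 15.6% to 26% of probe sets per array of the series lay at or under the floor of 11.8 to which low values were raised. Across probe sets the log2 signals correlated at 0.945 between the double knockout arrays, 0.935 between the Terc knockout arrays and 0.91 to 0.954 across the groups, so replicates were no closer to each other than to some arrays of the other group. The arrays were scanned on 3 days and washed in 4 runs. Double knockout replicate 1 was scanned on day 1, and double knockout replicate 2 and both Terc knockout arrays on day 2. No wash run held arrays of both Ku86 labels (0 of 4), so wash run and Ku86 label cannot be told apart. Each double knockout array shared its wash run with the Ku86 knockout array of the same number. Both Terc knockout arrays shared theirs with wild type replicate 2. Agreement between the Ku86 contrasts with and without Terc is thus not independent of wash run. With 2 arrays per group, that number limits the precision: an exact permutation test of a single gene has 6 groupings and cannot give a two-sided p below 0.333.

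Markers of late spermatids were read on all 4 arrays. Tnp2, a transition protein that replaces histones in spermatid heads, read 15328 to 18562, and Prm1, a protamine, read 13783 to 18507, while the probe set of Prm2, the other protamine, read 47.5 to 155. Markers of Sertoli (Clu), Leydig (Cyp17a1), peritubular (Acta2), endothelial (Vwf), macrophage (Csf1r) and red cells (Hba-a1) were also above the floor on all 4. Sycp3, a meiotic axis gene, had a single probe set at the floor on all 4 arrays, while the meiotic genes Sycp1 (358 to 482) and Ldhc (10230 to 13681) were well above it. Of the epididymis genes, Defb1 lay at the floor on 3 of the 4 arrays and Lcn5 on 2, while Gpx5 (51.3 to 69.4) and Lcn2 (190.5 to 329.8) were above it on all 4.

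No probe set passed the test. In the limma fit, 0 of 7282 probe sets (0%) had a Benjamini-Hochberg adjusted p under 0.05, and the smallest adjusted p was 0.501. At an unadjusted p under 0.05 there were 310 probe sets (4.26%), of which 163 (2.24%) were higher in the double knockout and 147 (2.02%) lower. The share to expect at that p with no difference anywhere is 0.05, so 4.26% is no excess. At an unadjusted p under 0.01, from which the 15 named genes per direction were filled, 30 (0.412%) were higher and 32 (0.439%) lower. Both double knockout arrays lay above both Terc knockout arrays in 1120 probe sets (15.4%) and below both in 1241 (17%). The median log2 difference was -0.02, the middle of the distribution ran from -0.24 at the lower quartile to 0.20 at the upper quartile, and 253 probe sets (3.47%) differed by more than 1 on the log2 scale, 130 upward and 123 downward. The median standard error of a difference was 0.31 on the log2 scale, with 4 residual degrees of freedom among arrays. A count of 0 says that no probe set stood out at this precision, and not that expression was the same. The genes below are therefore given as values, none of which passed the adjusted threshold. All differences are double knockout minus Terc knockout on the log2 scale, ± SE of the fit.

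**Figure D1:**
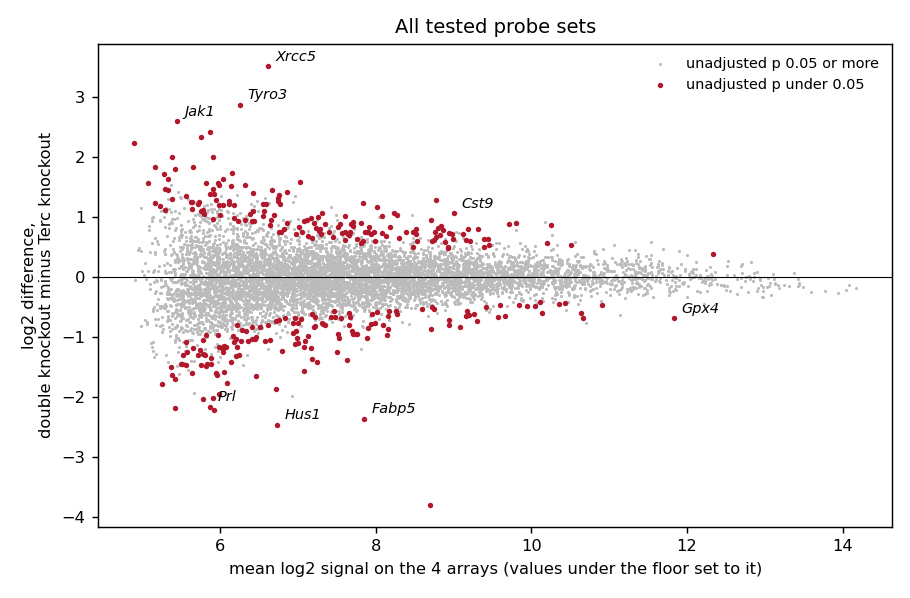
Log2 difference (double knockout minus Terc knockout) of each of the 7282 tested probe sets against its mean log2 signal on the 4 arrays, with the 310 probe sets at unadjusted p under 0.05 in red. Xrcc5 lies at the top at 3.51, and the lowest point, at -3.80, is a probe set with no gene name in the annotation used.

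Xrcc5 itself had the largest upward difference, against its label. It read 259 and 423 on the double knockout arrays and 71.2 and 11.1 on the Terc knockout arrays. Both arrays labelled Ku86(-/-) were thus above both labelled Ku86(+/+), by 3.51 ± 0.63 or 11.4-fold (unadjusted p = 1.38e-04, adjusted p = 0.501 in limma). Within scan day 2 the difference was 3.87. The same direction held in the mice with Terc, at 420 and 459 in the Ku86 knockout and 46.3 and 75.6 in wild type, a difference of 2.89, and the 2 differences were not told apart (interaction, unadjusted p = 0.501 in limma). A second Xrcc5 probe set read at most 3.4 on every array and was not tested. The sources used here do not place the probes relative to the deleted part, and whether the Ku86 labels match the arrays was not tested. Every direction below is that of the labels, and would be reversed if the Ku86 labels were exchanged.

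The other tested genes of end joining did not pass the test, and their differences were within 2 standard errors of 0 for those named. Xrcc6, the partner of Ku86, read 94.2 and 97.8 in the double knockout and 118 and 87.1 in the Terc knockout (-0.08 ± 0.40), and the groups overlapped. Prkdc, the catalytic subunit of the DNA-dependent protein kinase, read 57 and 35.2 against 71.7 and 89.7 (-0.84 ± 0.47, unadjusted p = 0.103 in limma), without overlap, as 16.3% of all genes were in that direction. Polm, a polymerase that fills end gaps, read 195 and 303 against 284 and 353 (-0.38 ± 0.26), with overlap. Of the 5 tested genes of end joining, Xrcc5 was the 1 above 0, the median was -0.28 and Xrcc5 had the 1 unadjusted p under 0.05.

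Telomerase and telomere-binding genes were close to each other in the groups. Tert read 142 and 104 against 172 and 115 (-0.21 ± 0.32), and the groups overlapped. Terc has no probe set on this array, so the shared deletion could not be checked. Nhp2, a protein of the telomerase ribonucleoprotein, read 354 and 411 against 304 and 272 and was higher on both double knockout arrays (0.41 ± 0.27). Gar1, of the same particle, overlapped at 1036 and 553 against 577 and 455 (0.56 ± 0.40). Tinf2, a shelterin subunit, overlapped at 299 and 350 against 349 and 404 (-0.22 ± 0.23). Of 8 tested genes 3 were above 0, none had an unadjusted p under 0.05, and the median was -0.04, against -0.01 over the 5530 genes tested (each gene by its brightest probe set).

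In DNA break signalling, the tested probe set of Hus1 was lower and Brca1 higher in the double knockout. Hus1, a subunit of the checkpoint clamp that loads at damaged DNA, read 73.6 and 27.9 in the double knockout and 214 and 292 in the Terc knockout. Its difference was -2.46 ± 0.55, which is 5.52-fold lower in the double knockout, and -3.16 within scan day 2. Hus1 reached the filter level of 38.1 only through the Terc knockout, the group in which it was high, so a test of it says nothing more and its p is not given. In the mice with Terc, Hus1 was higher with the Ku86(-/-) label, at 27.7 and 37.9 against 14.3 and 13.7 in wild type, so the Terc knockout alone stood high. Hus1 has other probe sets on the array that were under the filter and not tested. The brighter of these overlapped, at 37 and 31.5 in the double knockout and 34.4 and 26 in the Terc knockout. The fainter was lower without overlap, at 20.1 and 10.7 against 23.3 and 35.5. Brca1, which directs homologous recombination, read 76.8 and 57.4 against 35.2 and 16.7, higher in the double knockout by 1.45 ± 0.57, and reached the filter level only through the double knockout. Nbn, of the MRN complex that senses breaks, read 119 and 90.3 against 88.1 and 42.5 (0.76 ± 0.41), with the lower double knockout array close to the higher Terc knockout array. Rad17, which loads the clamp that Hus1 belongs to, overlapped at 341 and 247 against 256 and 163 (0.51 ± 0.28). Of the 17 tested genes of homologous recombination and break signalling 10 were above 0, and 5 were higher and 2 lower without overlap. Brca1 and Hus1 were the 1 in each direction at an unadjusted p under 0.05. Both passed the filter only through the group in which they were high, so that count supports nothing. Over all 5530 genes, the background for every list count here, the shares were 2.39% higher and 1.61% lower at that p, and 16.3% in each direction without overlap.

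The p53 targets had no common direction. Cdkn1a, the p53-induced inhibitor of cyclin-dependent kinases, read 146 and 141 in the double knockout and 167 and 198 in the Terc knockout (-0.34 ± 0.27). Plk2, a stress-induced polo-like kinase, was on the other side at 199.6 and 178 against 122 and 145 (0.50 ± 0.27). Sesn1, a sestrin that answers oxidative stress, read 225 and 153 against 146 and 119 (0.49 ± 0.32). Of 8 tested targets 5 were above 0, 2 were higher and 2 lower without overlap, and none had an unadjusted p under 0.05, against 16.3% of all genes without overlap in each direction. The 7 tested inhibitors of cyclin-dependent kinases had a median of -0.08 and none at that p. Among 15 genes of apoptosis the median was -0.07. Casp9, the initiator caspase of the mitochondrial pathway, read 118 and 103 against 129 and 222 (-0.62 ± 0.32), and -0.23 without Terc knockout replicate 2. Its other tested probe sets gave -0.11 and -0.37. Birc2, an inhibitor of apoptosis, read 596 and 570.1 against 484 and 435 (0.34 ± 0.23), but its other probe set gave -0.45.

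Most of the 15 named genes that were higher in the double knockout were faint in the Terc knockout. For 12 of them, Xrcc5 included, at least 1 Terc knockout array lay under the filter level of 38.1, for 6 both. Of the 15, 7 reached that level only through the double knockout, where they were high: Tyro3, Jak1, Tpp1, Mgp, Kif11, Adgrg1 and Rasip1. Such a probe set had to differ to be tested at all, so their values are a description, and 2.79% of all tested probe sets were of this kind. Jak1, a tyrosine kinase of cytokine receptors, read 119 and 96.6 against 26.6 and 11.9 (2.59 ± 0.56). Tyro3, a receptor tyrosine kinase that Sertoli cells use to clear dying germ cells, read 269.9 and 159 against 68.3 and 9.9 (2.87 ± 0.89). Both of its Terc knockout values were below its double knockout values, but they also lay far from each other. Adgrg1, an adhesion receptor coupled to G proteins, read 129 and 111 against 27.1 and 33.2 (2.00 ± 0.46).

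Tpp1, a lysosomal peptidase and not the telomere protein of the same name, read 113 and 161 against 45.3 and 14.2 (2.41 ± 0.69). Ctsf, the lysosomal protease cathepsin F, read 227 and 225 against 112 and 50.9 (1.58 ± 0.46). Derl1, of the endoplasmic reticulum's degradation channel, read 145 and 96.7 against 37.8 and 46 (1.51 ± 0.43), but its other probe set gave -0.06. Golph3l, a Golgi protein, read 117 and 54.2 against 18.9 and 27.8 (1.79 ± 0.48). In all 4 genes both double knockout arrays lay above both Terc knockout arrays, as the rule for naming them required.

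Mgp, the matrix Gla protein that keeps soft tissue free of mineral, read 133 and 110.1 against 36 and 16.1 (2.33 ± 0.66). Rasip1, which endothelial cells need to open vessel lumens, read 65.7 and 70.2 against 21.2 and 17.1 (1.83 ± 0.50). Spock2, a secreted proteoglycan, read 90.3 and 99.6 against 16.3 and 44 (1.82 ± 0.49) and on a second, brighter probe set 793 and 525 against 424 and 368 (0.71 ± 0.25). Cldn11, the claudin of the Sertoli cell barrier, read 191 and 148 against 70.8 and 53.2 (1.45 ± 0.38). Its other probe set, under the filter and not tested, went the other way at 25.2 and 26.9 against 39.1 and 56.9. The remaining named genes on this side were Kif11, a mitotic spindle motor, at 71.6 and 58 against 15.9 and 11.7 (2.23 ± 0.52), Dmtf1, a transcription factor that acts on Arf, at 177 and 104 against 40.4 and 54.2 (1.53 ± 0.41), and Epor, the erythropoietin receptor, at 96 and 139.7 against 28.9 and 48.4 (1.63 ± 0.40). With the floor raised to the pooled 40th percentile, Kif11 came to 0.76, Rasip1 to 0.83, Golph3l to 1.06 and Jak1 to 1.49. Where groups do not overlap, a raised floor can shrink a difference but cannot turn its sign.

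**Figure D2:**
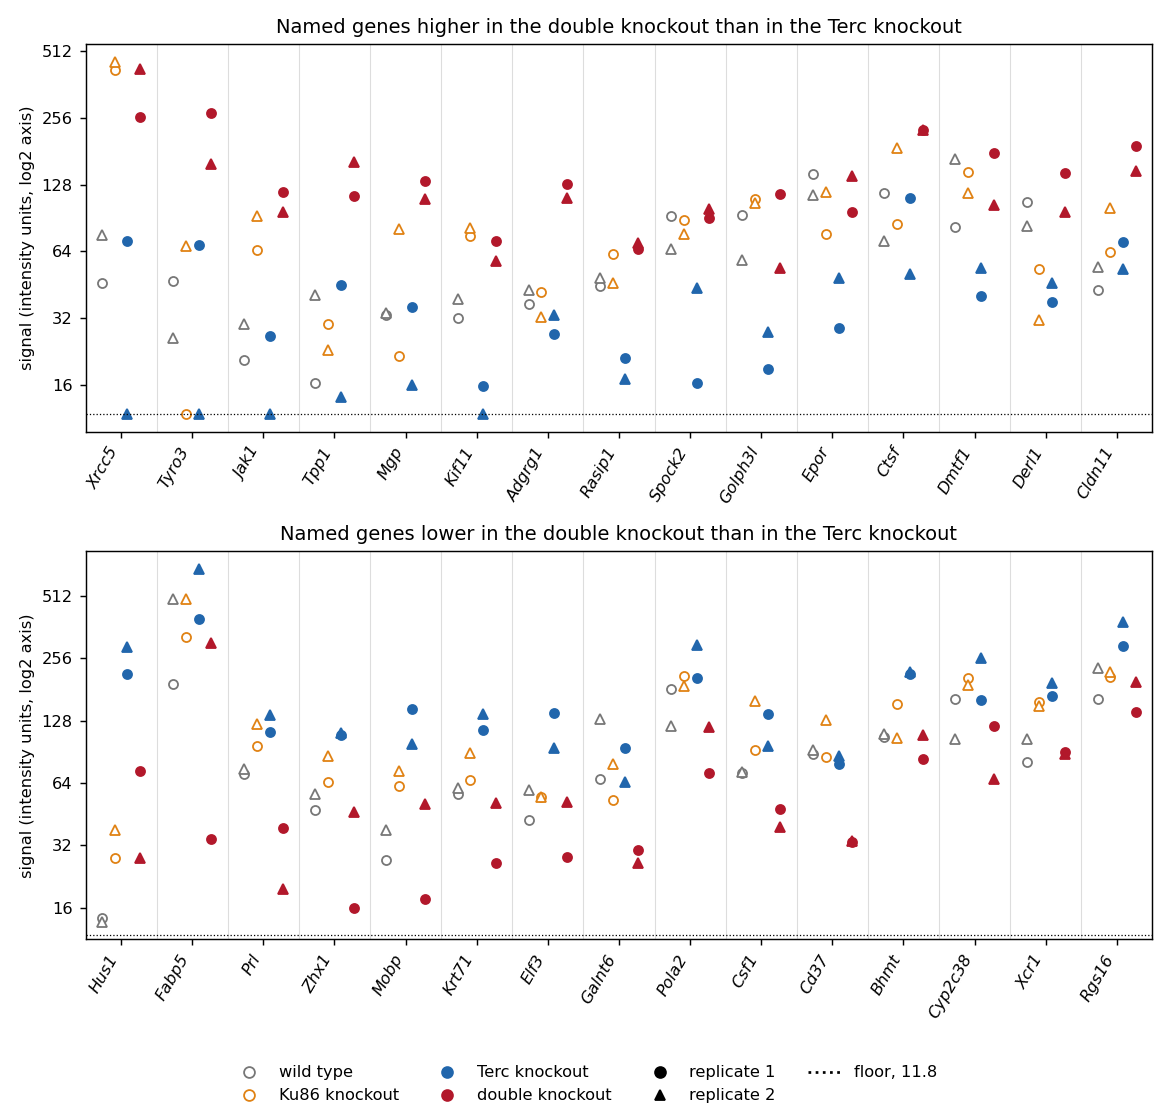
Signal on each of the 8 arrays (log2 axis, intensity units) for the 15 named genes higher and the 15 lower in the double knockout, with circles for replicate 1, triangles for replicate 2 and the dotted line at the floor of 11.8. Filled red (double knockout) and blue (Terc knockout) symbols do not overlap for any gene, which the naming rule required, and Fabp5 shows the widest gap between double knockout replicates.

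The named genes that were lower in the double knockout were of mixed function. Prl, the pituitary hormone prolactin, read 38.7 and 19.8 in the double knockout and 113 and 137 in the Terc knockout (-2.17 ± 0.41, unadjusted p = 2.24e-04, adjusted p = 0.543 in limma). Fabp5, a fatty acid carrier, read 34.4 and 302.5 against 398 and 693 (-2.36 ± 0.77). Its double knockout replicates lay far apart: within scan day 2 the difference was -0.80, and without double knockout replicate 2 it was -3.93. Pola2, a subunit of the polymerase that primes DNA replication, read 71.8 and 119 against 206 and 296 (-1.42 ± 0.34), while its other probe set gave -0.04.

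Csf1, the growth factor of macrophages, read 47.7 and 39.3 against 138 and 96.4 (-1.41 ± 0.39). Cd37, a tetraspanin of lymphocytes, read 33.2 and 33.5 against 78.9 and 86.4 (-1.31 ± 0.38). Xcr1, a chemokine receptor of dendritic cells, read 90.2 and 88.2 against 168 and 196 (-1.02 ± 0.29). Rgs16, which shortens G protein signals, read 141 and 198 against 295 and 385 (-1.01 ± 0.28) and -0.95 on its other probe set. The list of 12 tested macrophage and immune genes did not share this direction: its median was -0.02, 5 were above 0, none was lower without overlap, and Cd68, a macrophage marker, overlapped at 91.6 and 60.3 against 82.4 and 104 (-0.32 ± 0.40). Lcp1, a leukocyte actin bundler, read 64.7 and 50.7 against 37.3 and 28.3 (0.82 ± 0.49).

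Mobp, a myelin protein, read 17.6 and 50.5 against 147 and 98.9 (-2.01 ± 0.55). Its other probe sets, under the filter and not tested, read at most 13.6 on these arrays. Krt71, a hair follicle keratin, read 26.4 and 51.5 against 115 and 139 (-1.78 ± 0.43). Elf3, an epithelial ETS factor, read 28.1 and 52.1 against 139 and 94.6 (-1.58 ± 0.46). All 3 had a double knockout array under the filter level, as 9 of the 15 lower genes did. Zhx1, a zinc finger and homeobox repressor, read 15.9 and 46.3 against 110 and 112 (-2.03 ± 0.52), but its other probe set gave 0.01. Galnt6, which starts mucin-type sugar chains, read 30.4 and 26.4 against 94.5 and 64.9 (-1.47 ± 0.47).

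Bhmt, which remethylates homocysteine with betaine, read 83.3 and 109.7 against 215 and 220.3 (-1.19 ± 0.30), and -0.13 on its other probe set. Cyp2c38, a cytochrome P450, read 120.3 and 67.3 against 161 and 257 (-1.18 ± 0.37). The lowest difference of all belonged to a probe set without a gene name, at 109 and 113 against 2222 and 1074 (-3.80 ± 0.65, adjusted p = 0.501 in limma), which was singled out after its values were seen.

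A gene read by several probe sets offers a check within an array. Of 872 genes with 2 or more tested probe sets, 2 (0.229%) were higher and 1 (0.115%) lower on every one of them at an unadjusted p under 0.05 without overlap. The 2 were Spock2, given above, and Clu, the secreted chaperone clusterin that Sertoli cells make in bulk. Clu read 1409.6 and 1063 against 842 and 511 on its brighter probe set (0.90 ± 0.34) and 643 and 586 against 400.2 and 294 on the other. The 1 that was lower was Tollip, an adaptor that dampens Toll-like receptor signals, at 444 and 540 against 790.2 and 851 (-0.74 ± 0.26) and at 169 and 186 against 262 and 391.

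Of 19 tested Sertoli cell genes, 11 were above 0 and 8 below, and 5 had an unadjusted p under 0.05, each of the 5 higher in the double knockout. The genes named here were picked by p. Amh, another Sertoli marker, overlapped at 30 and 44.1 against 43.8 and 49.4. Cst9, a cystatin of Sertoli cells, read 885 and 624 against 421 and 301 (1.06 ± 0.28, unadjusted p = 0.0023, adjusted p = 0.967 in limma). Ctsl, the protease cathepsin L that Sertoli cells secrete in stages, read 779 and 602 against 412 and 191 (1.29 ± 0.42). Inha, the inhibin alpha subunit that restrains pituitary follicle-stimulating hormone, read 394 and 382 against 272 and 110.4 (1.16 ± 0.50) and was chosen after its values were seen. Together with Clu and Cldn11, whose untested probe set went the other way, these were the 5 of 19 tested Sertoli genes at an unadjusted p under 0.05. All were higher, against 2.39% of all genes higher. This list, like the others, was chosen with earlier results of these data known, so the count is a description only. The list had a median of 0.09, with 7 higher and 3 lower without overlap, against 49% of all genes above 0 and 16.3% without overlap in each direction. Its summed signal was 6436 and 5473 in the double knockout and 4596 and 4137 in the Terc knockout. The 5 became 2 without double knockout replicate 1, 2 without Terc knockout replicate 2, 2 with no filter and 3 with no variance trend.

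Peritubular, vascular and matrix genes had the highest median of the 24 lists. Lama1, a basement membrane laminin, read 86.4 and 109 against 34.6 and 31.3 (1.56 ± 0.56). Pecam1, an endothelial adhesion molecule, read 129 and 68.6 against 32.1 and 41 (1.38 ± 0.49). Of other endothelial markers, Vwf was higher at 100.2 and 91.5 against 64.9 and 45.6, while Kdr overlapped at 62.5 and 39.1 against 72.2 and 44. Myh11, smooth muscle myosin, read 95.7 and 121 against 65.4 and 30.4 (1.27 ± 0.55). Acta2, smooth muscle actin of peritubular cells, overlapped at 296 and 500.2 against 297 and 122 (1.02 ± 0.42). Csrp1, a smooth muscle LIM protein chosen after its values were seen, read 105 and 207 against 94.4 and 55.3 (1.03 ± 0.47). These were the 5 of 22 tested genes at an unadjusted p under 0.05, with none lower, against 2.39% of all genes higher and 1.61% lower. Lama1 and Myh11 reached the filter level only through the double knockout, and the list was chosen with earlier results of these data known. The count of 5 thus supports nothing further. Of the 22, 16 were above 0, 9 were higher and 2 lower without overlap, and the median was 0.40. Over all genes 49% were above 0, 16.3% were without overlap in each direction, and the median was -0.01. The summed signals were less separate than the counts, at 4857 and 5378 in the double knockout and 4032 and 4546 in the Terc knockout. The 5 became 2 without double knockout replicate 2, 1 without Terc knockout replicate 2, 1 with the filter at the 60th percentile, 3 with no filter or no variance trend, and 8 with scan day as a block. In the mice with Terc, this list had a median of 0.49 and the Sertoli list 0.44, against 0.08 over all genes. Myh11 (2.43, both wild type arrays under the floor), Acta2 (1.41) and Csrp1 (0.56) were above 0 there. Lama1 (-0.49) and Pecam1 (-0.77) were below. In bulk tissue, more cells of a type and more RNA per cell cannot be told apart, which holds for every cell type list here. The named genes Mgp, Rasip1 and Cldn11, the last itself on the Sertoli list, were higher on the same arrays, which the rule for naming them required. The part of cell composition in the differences was not tested.

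**Figure D3:**
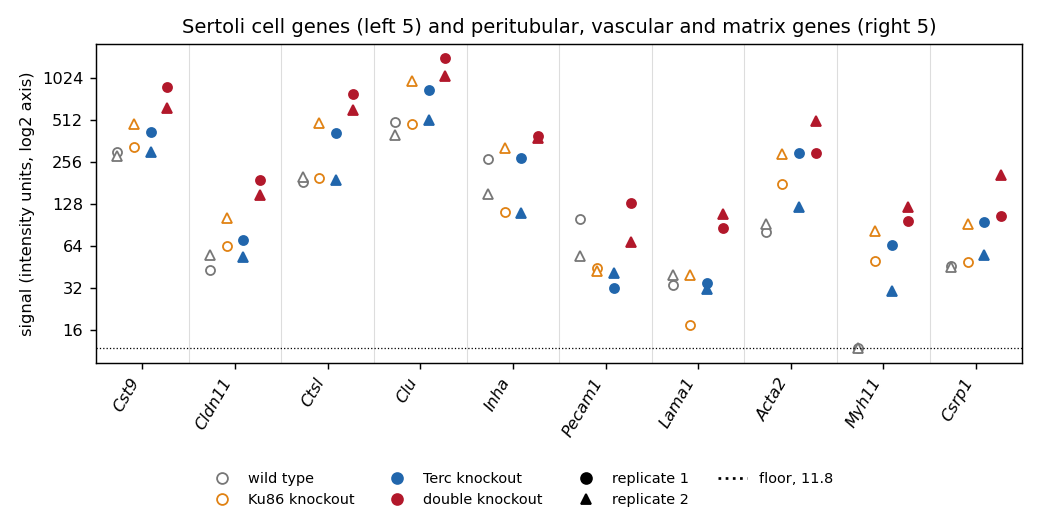
Signal on each of the 8 arrays (log2 axis, intensity units) for the 5 Sertoli cell genes and the 5 peritubular, vascular and matrix genes at unadjusted p under 0.05, with the symbols for genotype and replicate given in its key and the floor of 11.8 dotted. The double knockout arrays lie above the Terc knockout arrays for each gene except Acta2, where 296 and 297 meet. The genes were picked for that p in this same contrast, so the separation follows largely from the choice.

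No spermatogonial gene had an unadjusted p under 0.05. Of 8 tested, 7 were above 0 (49% of all genes were), 3 were higher without overlap and none lower (16.3% of all genes in each direction), and the median was 0.33. Dmrt1, a factor that keeps spermatogonia out of meiosis, read 72 and 68.4 against 45.8 and 12.9 (1.53 ± 0.72), and reached the filter level only through the double knockout. Uchl1, a ubiquitin hydrolase of spermatogonia, read 437 and 387 against 340.2 and 317 (0.33 ± 0.26). Dazl, a germ cell RNA-binding protein, overlapped at 696 and 495 against 414 and 531 (0.32 ± 0.27), and its other probe set gave -0.35.

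Meiotic and spermatid genes were nearly level. None of the 10 tested spermatocyte genes separated the groups, and their median was -0.02; Hspa2, the meiotic heat shock protein, overlapped at 3990 and 2592 against 3172 and 2022 (0.34 ± 0.26). Among 17 round spermatid genes the median was 0.08, with 1 higher and 2 lower without overlap. Tnp1, the first transition protein, overlapped at 5993 and 8563 against 9781 and 8282 (-0.33 ± 0.23). Ace, in its germ cell form a spermatid enzyme, read 397 and 306 against 271 and 284 (0.33 ± 0.26).

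Among elongating spermatid genes, the bright transcript of Gpx4 was lower in the double knockout. Gpx4, the selenium enzyme that becomes the capsule of sperm mitochondria, read 2770.1 and 2998 against 5460 and 3964 (-0.69 ± 0.21, unadjusted p = 0.0060, adjusted p = 0.990 in limma), and -0.63 within scan day 2. Oaz3, the antizyme of late spermatids, read 7284 and 8312 against 9202 and 10024 (-0.30 ± 0.15). Gsg1, a germ cell gene, read 10685 and 12022 against 13358 and 13523 (-0.25 ± 0.14), but -0.06 under quantile normalization. Hk1, the hexokinase with a sperm form, was on the other side at 1088 and 759 against 664 and 570.3 (0.56 ± 0.26). Over the 14 tested genes the median was -0.03, with 2 higher and 4 lower without overlap and 1, Gpx4, at an unadjusted p under 0.05.

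Leydig and blood genes showed no common direction. The 11 tested Leydig genes had a median of -0.05, with 2 higher and 3 lower without overlap. Hsd3b1, a steroid dehydrogenase, read 79 and 69.5 against 104.2 and 103.9 (-0.49 ± 0.40), and Ptgds, the prostaglandin D synthase, read 894 and 786 against 919 and 1529 (-0.50 ± 0.26). Of 5 red cell genes 2 were lower without overlap, and Hba-a1, alpha globin, read 1320 and 1240 against 1492 and 3190 (-0.77 ± 0.42), a value that rests largely on Terc knockout replicate 2. The 5 tested interferon genes were all below 0 (median -0.22), but none separated the groups.

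**Figure D4:**
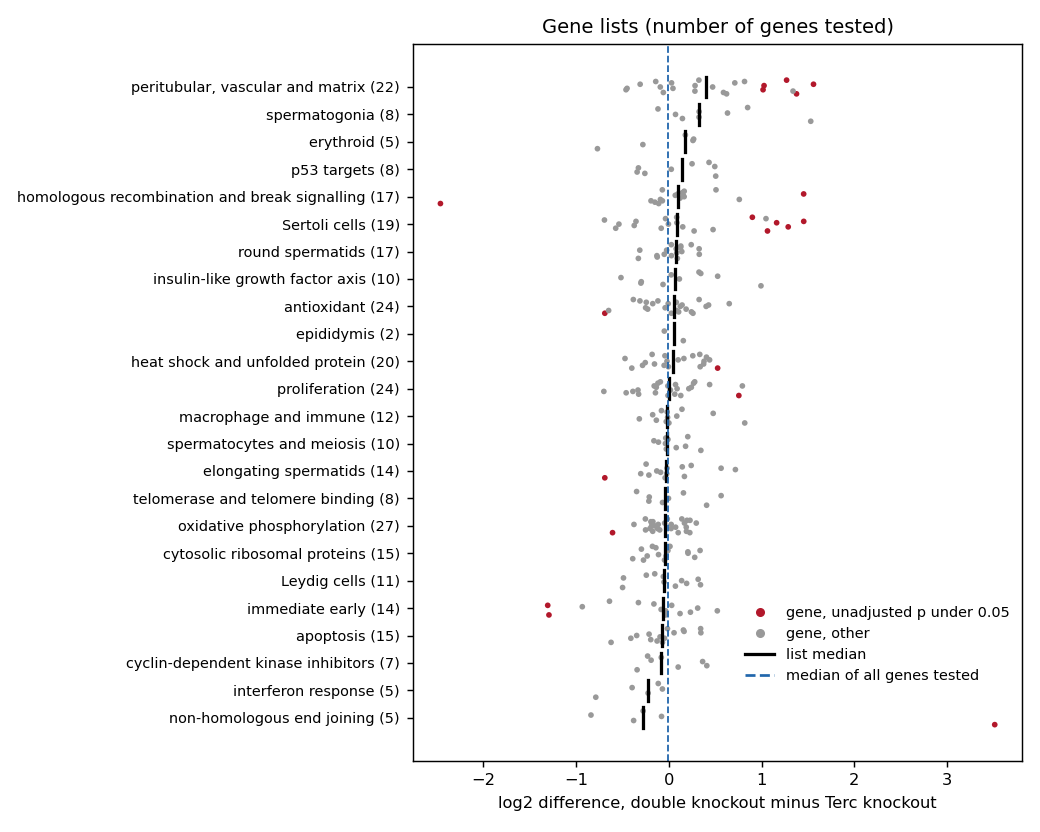
Log2 difference (double knockout minus Terc knockout) of each tested gene in 24 gene lists, with the number of genes in brackets, a black bar at each list median and a dashed line at the median of all 5530 genes (-0.01). The peritubular, vascular and matrix list has the highest median (0.40), the end joining list the lowest (-0.28) although it holds Xrcc5 at 3.51, and most list medians lie within 0.1 of 0.

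Growth and stress lists stayed near the median of all genes. Of 24 tested proliferation genes 12 were above 0 (median 0.00), with Top2a, the topoisomerase of dividing cells, at 334 and 272 against 212 and 150.4 (0.75 ± 0.27). Rrm1, of the enzyme that makes deoxynucleotides, read 278 on both double knockout arrays against 236 and 109 (0.79 ± 0.37). Tk1, thymidine kinase, was lower at 91.8 and 160.3 against 188 and 207 (-0.70 ± 0.39) but gave 0.07 on its other probe set, and Ccnb2, a mitotic cyclin, read 3288 and 2502 against 2389 and 2341 (0.28 ± 0.20).

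The unfolded protein genes split. Hspa5, the chaperone BiP, read 1991 and 1529 against 1397 and 1051 (0.53 ± 0.21), and Hsp90b1, its partner GRP94, read 1792 and 1724 against 1516 and 1213 (0.37 ± 0.24). Atf4, a transcription factor of the same response, was lower at 314 and 306 against 476 and 389.8 (-0.47 ± 0.24). The 20 tested genes of heat shock and unfolded protein had a median of 0.05, with 10 above 0. Among 24 antioxidant genes the median was 0.05, with Gpx4 the 1 at an unadjusted p under 0.05, and Txn1, thioredoxin, overlapped at 335 and 223 against 129.5 and 234 (0.65 ± 0.34).

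Of 14 tested immediate early genes, 2 had an unadjusted p under 0.05, both lower, against 1.61% of all genes. Egr2, a zinc finger factor, read 47.9 and 25.5 against 76.6 and 95.8 (-1.29 ± 0.51), and Fosl2, an AP-1 subunit, read 27.3 and 46.3 against 100.2 and 77.2 (-1.31 ± 0.52). Klf4, which is abundant in spermatids, read 1129 and 666 against 554 and 658 (0.52 ± 0.25), with the nearest arrays almost equal. The list had a median of -0.06.

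The insulin-like growth factor axis (10 tested, median 0.07), oxidative phosphorylation (27 tested, median -0.05), cytosolic ribosomal proteins (15 tested, median -0.05) and epididymis (2 tested, median 0.05) complete the lists. Igfbp6, a binding protein of that axis, read 363 and 381 against 291 and 119.6 (0.99 ± 0.57), and Akt2, a kinase downstream of its receptor, read 342 and 253 against 218 and 192 (0.53 ± 0.34). Ndufa2, a complex I subunit, read 722 and 1157 against 1571 and 1235 (-0.61 ± 0.25), the 1 gene of its list at an unadjusted p under 0.05. Of the ribosome's proteins, Rpl41 read 12903 and 15886 against 17847 and 16789 (-0.27 ± 0.15), a difference that vanished under quantile normalization. Rps3 read 1188 and 1141 against 931 and 914 (0.34 ± 0.18).

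Genes near Xrcc5 were looked at, because a targeted locus can keep flanking chromosome from another strain. Of the 40 tested genes nearest in gene order, 20 on each side, 3 were higher and 7 lower without overlap, 1 had an unadjusted p under 0.05, and the median was 0.00. Over all genes 16.3% separated in each direction, and 2.39% were higher and 1.61% lower at that p. In 2 of the 40 the groups separated in the same direction with and without Terc: Clk1, a splicing kinase, at 484 and 428 against 309 and 295 (0.59), and Lancl1, a glutathione-binding protein (-0.20). In the mice with Terc 24.4% of all tested probe sets were higher and 13.7% lower without overlap. The share of all genes separating alike in both contrasts was not counted, so these 2 are given as values only.

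The Ku86 label contrast was then set beside the one in mice with Terc. There Ku86 knockout and wild type share no array with the groups above, but do share wash runs with them. Across the 7282 probe sets the pair of log2 differences correlated at -0.014, a description across probe sets that are not independent. In the mice with Terc 430 probe sets (5.9%) had an unadjusted p under 0.05. Both contrasts had such a p in 31, and in 20 of these, Xrcc5 among them, the direction was the same. Those 20 are 6.45% of the 310 and 4.65% of the 430. The interaction, which tests whether the Ku86 label differs with Terc status, called 0 probe sets in limma (0%, smallest adjusted p = 0.124), with 367 (5.04%) at an unadjusted p under 0.05.

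The named genes were not alike in this respect. Of the 15 higher genes 11 were also above 0 in the mice with Terc, where 59.7% of all probe sets were, with Jak1 at 1.63 and Kif11 at 1.14. Derl1 went the other way at -1.21. Of the 15 lower genes 1, Galnt6 at -0.52, was below 0 in the mice with Terc, where 40.3% of all probe sets were. Among the other 14, Hus1 stood at 1.21, Mobp at 1.07 and Prl at 0.58. Across the 4 genotypes the Terc knockout mean was the highest for 12 of the 15 lower genes and the double knockout mean the lowest for 13. For the 15 higher genes the double knockout mean was the highest for 11 and the Terc knockout mean the lowest for 12. Over all tested probe sets the Terc knockout was highest in 30% and lowest in 19.2%, and the double knockout highest in 26.3% and lowest in 22.2%. Since the genes were named for a difference between these same groups, such positions follow in part from that choice and support nothing further.

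**Figure D5:**
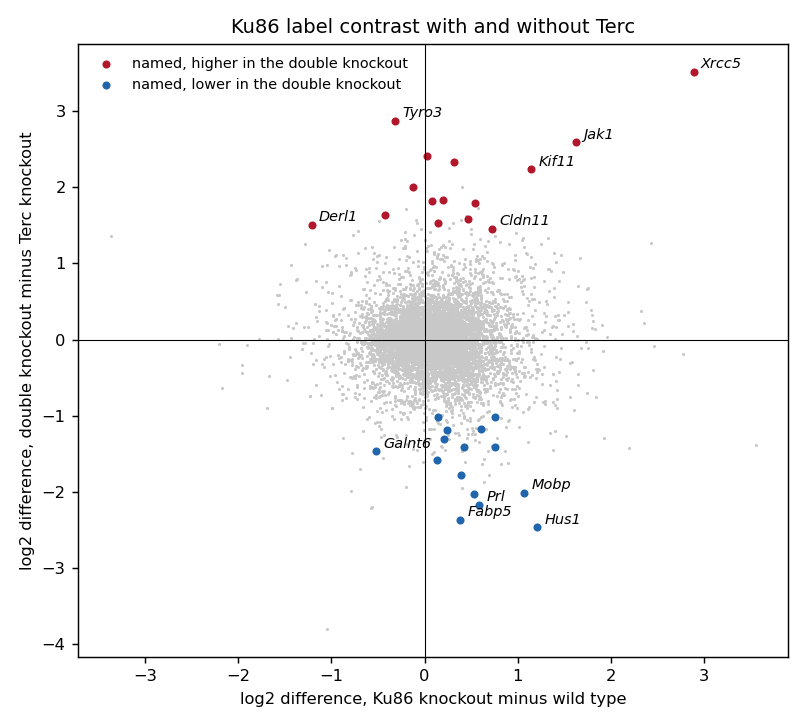
Log2 difference of the Ku86 label in mice without Terc (vertical axis) against that in mice with Terc (horizontal axis) for each of the 7282 tested probe sets, with named higher genes in red and named lower genes in blue. Xrcc5 lies far out on both axes (3.51 and 2.89), while Hus1 is at -2.46 on the vertical and 1.21 on the horizontal axis.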

How the data were processed

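Total RNA was hybridised to 8 Affymetrix MG_U74Av2 arrays, grouped by the genotype in the labels. The deposited values are probe set intensities on a linear scale. The authors had scaled each array, with a mean of 200.13 to 200.16 once the top and bottom 2% of probe sets were left out. The sources used here do not name the software. Values were taken as they stand. Values under 11.8, the 20th percentile over all arrays, were raised to that floor before the log2 transform. From the 12422 probe sets that are not controls, those whose mean log2 signal over 8 arrays was under that of the pooled 40th percentile (38.1) were left out. By the platform annotation 10833 had 1 gene symbol, 396 several and 1193 none. No genome was used, so genes carry no coordinates, and the gene order around Xrcc5 came from the RefSeq table.

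A linear model with 1 mean per genotype was fitted to all 8 arrays by lmFit and eBayes (with a trend) of limma 3.58.1, under R 4.3.3. Tests were two-sided, the Benjamini-Hochberg adjustment ran over 7282 probe sets, and 0.05 was the threshold. The members and lists were chosen with earlier results of these data known. Named were Xrcc5, Xrcc6 and Tert, then probe sets of 1 symbol without overlap, filled to 15 per direction by size among those at unadjusted p under 0.01, then genes with every tested probe set at p under 0.05, then up to 4 genes per list by p. In lists a gene stands by its brightest probe set. Alternatives changed how arrays were normalized, where floor and filter lay, whether the variance had a trend, which arrays entered, the threshold, and whether scan day, wash run or experiment number was a block. The scripts were tested on simulated data. All replicate 2 arrays were scanned on day 2, but double knockout replicate 1 was scanned on day 1 and Terc knockout replicate 1 on day 2. The same experiment number thus does not always mark a shared scan day, nor does it mark a shared animal, so arrays were not paired.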

Additional observations from a re-analysis of the deposited data

How the results depend on the processing

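The count of 0 probe sets in the double knockout against the Terc knockout became 10 with no filter, 1 with the 4 arrays alone and 9 within scan day 2, where 1 residual degree of freedom is left, and leaving out each array in turn gave 0 to 2. The interaction count of 0 became 8 with no filter and 9 within scan day 2, and ran from 0 to 1 with arrays left out in turn. A lone array was then taken to vary like the other groups. Both counts stayed at 0 under quantile normalization, median centring, other floors, the stricter filter, no variance trend, scan day as a block, wash run as a random block and an adjusted p under 0.10. With the experiment number as a replicate block 0 were called, and 430 had an unadjusted p under 0.05. Same-numbered arrays deviated together at 0.22, over 2 pairs. Wash run as a random block, chosen after seeing the data, left 226 at that p, against 310. Without double knockout replicate 1 there were 193, without double knockout replicate 2 481, without Terc knockout replicate 1 601 and without Terc knockout replicate 2 175. The share higher among them, 52.6%, became 70.3% without Terc knockout replicate 2, 37.3% without double knockout replicate 1 and 40.8% with no filter. The cause was not tested.

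Xrcc5 kept its direction throughout. Its difference was 3.87 within scan day 2, where double knockout replicate 2 alone stands for its group, and ranged from 2.22 to 4.81 with arrays left out. Xrcc6 turned to 0.00694 with the wash run as a random block and ranged from -0.30 to 0.14 with arrays left out. Tert ranged from -0.505 to 0.0818 with arrays left out, and was 0.013 without double knockout replicate 2. Of 53 list genes none changed sign under the alternatives run, but Rpl41 came to 0 under quantile normalization. The genes named for groups without overlap could hardly change sign, since that choice fixes it.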
